A study of Sus scrofa with 18 samples.

Results

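Metallothioneins are small, cysteine-rich proteins that bind zinc and copper in the cytosol, and their genes are switched on by the zinc-sensing transcription factor MTF1. Free zinc in the cell is set by these buffers together with importers of the SLC39 family and exporters of the SLC30 family. Copper enters mainly through SLC31A1 and is handed on by chaperones such as ATOX1. Zinc is known to be held at high levels in mammalian oocytes and to be partly released at egg activation, and metallothioneins also react with oxidants. Here 8 genes of this system were followed, out of 24358 genes in each deposited table. They comprised 3 metallothionein genes, the sensor MTF1, the zinc importer SLC39A8, the zinc exporter SLC30A1, the copper importer SLC31A1 and the copper chaperone ATOX1. The genes were found in the tables by symbol or identifier, and all 8 were present. The members were chosen by their FPKM in the vitrified and fresh embryos of these same libraries, which were already known, so the differences between vitrified and fresh embryos given here describe these libraries and do not test the set.

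The embryos were porcine clones made by somatic cell nuclear transfer with ear cells of Diannan miniature pigs and oocytes from slaughterhouse ovaries, and all were cultured in PZM-3 medium. Vitrified embryos came from cloned zygotes that were vitrified on a Cryotop carrier with ethylene glycol and warmed before culture, and fresh embryos came from cloned zygotes that were not vitrified. Embryos for cDNA libraries were collected at 24 h after chemical activation for 2-cells (4 embryos pooled per library), 48 h for 4-cells (2 embryos) and 144 h for blastocysts (1 embryo), with 3 libraries of vitrified and 3 of fresh embryos at each stage, 18 in all. Blastocysts were embryos that had reached that stage, so embryos that stopped earlier are not represented. Levels were given in FPKM, a count of sequenced fragments scaled for the length of the gene and the size of the library. The lowest value in common use in the tables was 0.0001 FPKM, taken here as listed at 0.

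Between 8198 and 8841 genes reached 1 FPKM in the cleavage-stage libraries and between 7551 and 7834 in blastocysts. Of the markers fixed for the stages, those of the oocyte followed the labels. Of these, 9 of 9 reached 1 FPKM in 2-cells and 4-cells, and their summed level was between 1.21 and 3.22 FPKM in blastocysts. Of 11 blastocyst markers, 8 were detected in vitrified and 9 in fresh blastocysts, while SOX2 and SOX17 stayed under 1 FPKM in both. Not all were particular to that stage. The marker NANOG was at 8.97 to 289 FPKM in 4-cells and at 3.84 FPKM or less in blastocysts. TFAP2C was at 4.32 to 175 FPKM in 4-cells and at 13.7 to 35.2 FPKM in blastocysts. Vitrified 4-cell replicate 3 stood apart, with a mean correlation of 0.763 to the other 4-cell libraries against 0.869 or more for each of the others. It held 289 FPKM of NANOG, a pluripotency factor switched on from the embryonic genome, against 29.9 FPKM or less in the other 4-cell libraries, and 39.8 FPKM of the maternal transcript OOEP, against 330 FPKM or more. The members' differences in 4-cells are therefore also given without this library.

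The 3 metallothioneins lie close together in the pig genome. In RefSeq's annotation of Sscrofa11.1, MT4, MT3, MT-2B, a long non-coding RNA, MT1D, LOC100739663, LOC102166944 and MT1A follow each other on chromosome 6. The names need care. The gene that the tables call MT1A (ENSSSCG00000023684, described as metallothionein-1E-like) was cross-referenced to LOC102166944, and not to the RefSeq entry MT1A. The gene called MT2A (ENSSSCG00000030300) was cross-referenced to MT-2B. ENSSSCG00000024911, described as metallothionein-1E, was cross-referenced to MT1D. The coding sequences of such neighbours are very similar, so how fragments were divided among them is uncertain. Levels of a single metallothionein are therefore given beside the sum of all 3.

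MT2A was among the most abundant transcripts of cleavage-stage embryos and far lower in blastocysts. In 2-cells it stood at 3086, 2794 and 3270 FPKM in vitrified embryos, against 3445, 1853 and 2343 FPKM in fresh embryos. These groups overlapped, and MT2A ranked between 15th and 30th of all genes in each of the 6 libraries. In 4-cells it stood at 3504, 6339 and 774 FPKM in vitrified embryos, against 796, 901 and 2216 FPKM in fresh embryos. Vitrified replicates 1 and 2 were above every fresh library, whereas vitrified replicate 3, the library that stood apart, was below them. In blastocysts MT2A was at 2.80, 0.0001 and 28.8 FPKM in vitrified embryos, against 80.3, 145 and 25.6 FPKM in fresh embryos. Vitrified replicates 1 and 2 were the lowest of the 6 blastocysts, and replicate 3 was slightly above fresh replicate 3, so that the groups overlapped.

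MT1A had another course, being low in cleavage stages and high in fresh blastocysts. Its level was 1.75, 0.525 and 1.03 FPKM in vitrified 2-cells, against 0.748, 0.230 and 1.64 FPKM in fresh 2-cells. It was 2.88, 1.98 and 1.05 FPKM in vitrified 4-cells, against 0.383, 1.12 and 2.43 FPKM in fresh 4-cells. Both pairs of groups overlapped around 1 FPKM, the minimum level used here. In blastocysts MT1A stood at 0.211, 0.445 and 3.99 FPKM in vitrified embryos, against 16.3, 20.4 and 6.89 FPKM in fresh embryos. Every vitrified blastocyst was below every fresh one. In the order of group means, fresh blastocysts came first at 14.5 ± 6.92 FPKM (SD, n = 3) and did not overlap with the next group, while the other groups overlapped with their neighbours.

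ENSSSCG00000024911 varied little before the blastocyst stage. It was at 5.89, 6.10 and 7.83 FPKM in vitrified 2-cells, against 6.97, 3.86 and 5.08 FPKM in fresh 2-cells. In 4-cells it was at 7.67, 7.87 and 5.47 FPKM in vitrified embryos, against 7.29, 4.35 and 6.53 FPKM in fresh embryos. All 12 cleavage-stage libraries thus lay between 3.86 and 7.87 FPKM. In blastocysts it stood at 0.302, 0.0001 and 5.72 FPKM in vitrified embryos, against 8.92, 14.7 and 10.3 FPKM in fresh embryos. The vitrified blastocysts were again all below the fresh ones.

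**Figure D1:**
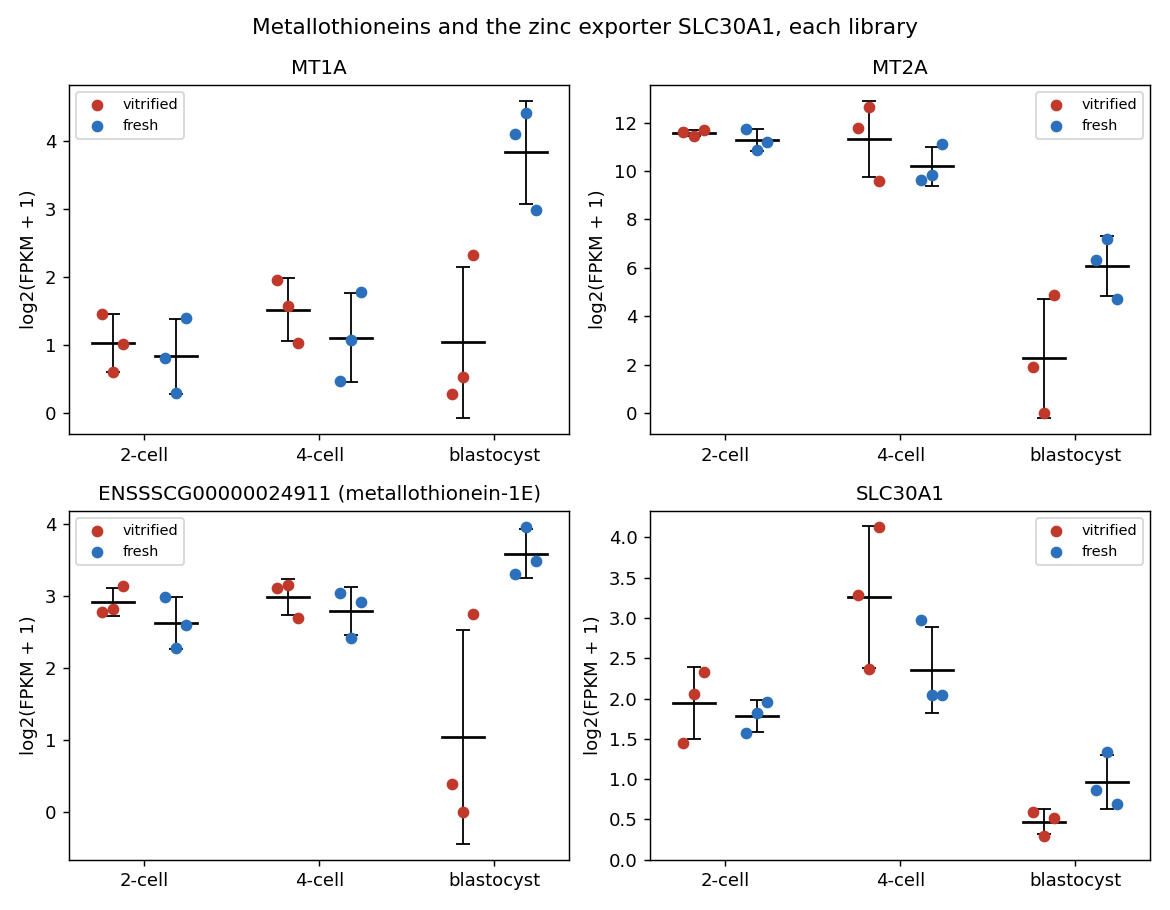
Level of the 3 metallothioneins and the zinc exporter SLC30A1 in each of 18 libraries, as log2(FPKM + 1), by stage. Points are libraries (vitrified in red, left; fresh in blue, right), and black bars give the mean and SD of 3. MT2A falls at the blastocyst stage in both treatments. Among the 6 blastocysts, the vitrified ones lie below the fresh ones for MT1A, ENSSSCG00000024911 and SLC30A1, and for MT2A apart from vitrified replicate 3.

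Summed over the 3 metallothioneins, the level was 0.421 to 0.750% of all FPKM in 2-cells of both treatments. The share was 0.653, 1.07 and 0.143% in vitrified 4-cells, against 0.152, 0.171 and 0.420% in fresh 4-cells. The sum was 3.31, 0.445 and 38.5 FPKM in vitrified blastocysts, against 105, 180 and 42.7 FPKM in fresh blastocysts. Every vitrified blastocyst was below every fresh one in this sum too, though vitrified replicate 3 and fresh replicate 3 were close. FPKM is scaled by gene length, so the sum still depends in part on how fragments were divided among the 3 genes. Fragments given to neighbours outside the 3 are not in it. MT2A made up most of it in all libraries but vitrified blastocyst replicate 2, in which it was listed at 0.

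SLC30A1, which moves zinc out of the cytosol and is itself a target of MTF1 in mouse, had its highest group means in 4-cells. It was at 1.74, 3.16 and 4.02 FPKM in vitrified 2-cells, against 1.97, 2.55 and 2.87 FPKM in fresh 2-cells. In 4-cells it was at 8.76, 4.13 and 16.4 FPKM in vitrified embryos, against 6.83, 3.12 and 3.12 FPKM in fresh embryos. The highest value belonged to vitrified replicate 3, and the groups overlapped. In blastocysts it was at 0.511, 0.230 and 0.429 FPKM in vitrified embryos, against 0.821, 1.53 and 0.611 FPKM in fresh embryos. The vitrified blastocysts were all lower, as for MT1A and ENSSSCG00000024911, but only 1 of the 6 libraries reached 1 FPKM and the gene was left out of the fit at this stage.

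Across the 6 blastocysts, MT1A, MT2A and ENSSSCG00000024911 went up and down together. The Pearson r on log2(FPKM + 1) was 0.95 between MT1A and MT2A, 0.95 between MT1A and ENSSSCG00000024911, and 0.96 between MT2A and ENSSSCG00000024911. SLC30A1 followed them less closely, with r of 0.81 with MT1A. These values cover 6 single embryos that also differ by treatment, and the metallothioneins may share fragments, so they are descriptions only. In the 6 2-cell libraries r was 0.41 between MT1A and MT2A and 0.95 between MT2A and ENSSSCG00000024911.

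**Figure D2:**
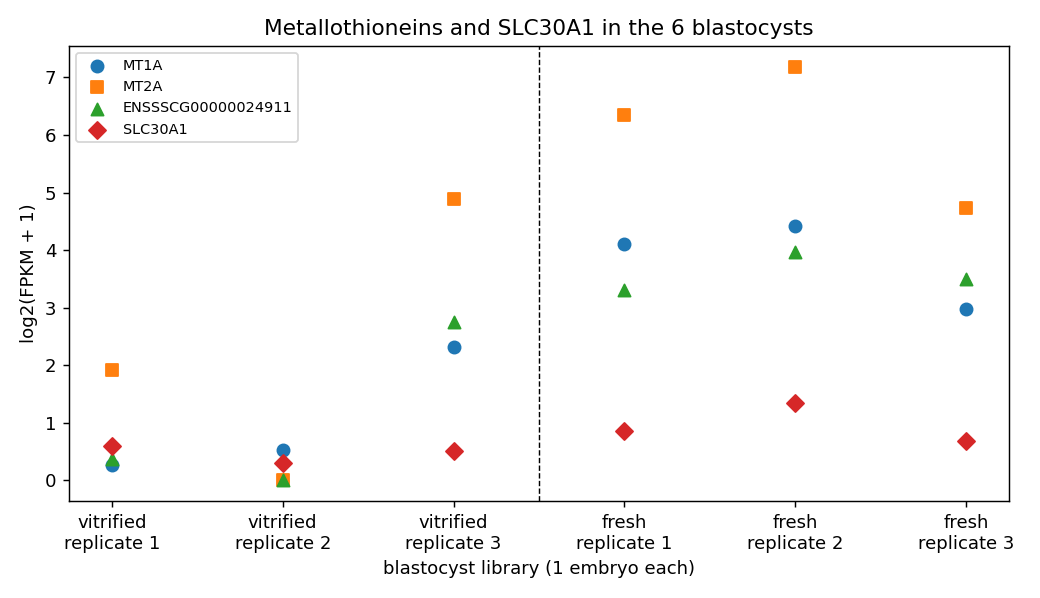
MT1A, MT2A, ENSSSCG00000024911 and SLC30A1 in the 6 blastocyst libraries, as log2(FPKM + 1), 1 embryo per library. Vitrified blastocysts are left of the dashed line and fresh ones right of it. For the 3 metallothioneins vitrified replicate 3 lies nearest to the fresh blastocysts, with 28.8 FPKM of MT2A against 25.6 FPKM in fresh replicate 3. For SLC30A1 vitrified replicate 1 lies nearest, at 0.511 FPKM against 0.611 FPKM in fresh replicate 3.

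MTF1, the sensor that carries zinc status to the metallothionein promoters, did not separate the treatments. It was at 10.7, 11.03 and 8.82 FPKM in vitrified 2-cells, against 11.8, 13.7 and 9.71 FPKM in fresh 2-cells. In 4-cells it was at 23.1, 11.3 and 20.0 FPKM in vitrified embryos, against 12.8, 12.6 and 14.6 FPKM in fresh embryos. In blastocysts it was at 2.20, 2.83 and 3.13 FPKM in vitrified embryos, against 2.42, 2.02 and 2.57 FPKM in fresh embryos. The groups overlapped at each stage, and MTF1 remained above 2 FPKM in the same vitrified blastocysts in which the metallothioneins were lowest. The part of MTF1 in the metallothionein levels was not tested.

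SLC39A8 brings zinc and manganese into the cytosol and was the member with the clearest gap in 4-cells. In 2-cells it was at 32.6, 16.5 and 24.7 FPKM in vitrified embryos, against 17.6, 37.8 and 25.2 FPKM in fresh embryos. In 4-cells it was at 14.8, 17.4 and 6.37 FPKM in vitrified embryos, against 34.6, 46.3 and 48.0 FPKM in fresh embryos. Every vitrified 4-cell library was below every fresh one, with a mean of 12.9 ± 5.77 FPKM in vitrified and 43.0 ± 7.29 FPKM in fresh 4-cells (SD, n = 3 each). The gap remained without vitrified replicate 3, which had the lowest value. In all 6 blastocysts the level was 0.168 FPKM or less.

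SLC31A1, the main copper importer of the plasma membrane, was low in all 2-cell libraries but 1 and abundant afterwards. In 2-cells it was at 2.76, 2.14 and 2.33 FPKM in vitrified embryos, against 1.37, 53.7 and 3.92 FPKM in fresh embryos. Fresh replicate 2 was far above the other 5 libraries, and it also held 4.04 FPKM of NANOG, which was at 0.199 FPKM or less in the other 2-cell libraries. In 4-cells SLC31A1 was at 123, 136 and 789 FPKM in vitrified embryos, against 124, 97.8 and 241 FPKM in fresh embryos. The highest value was again that of vitrified replicate 3. In blastocysts it was at 154, 104 and 131 FPKM in vitrified embryos, against 66.3, 153 and 131 FPKM in fresh embryos, and the groups overlapped at every stage. Whether the stage of the embryos pooled in fresh 2-cell replicate 2 and vitrified 4-cell replicate 3 had a part in these levels was not tested.

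ATOX1 takes up copper inside the cell and hands it to the copper pumps of the secretory pathway. It was at 72.6, 81.0 and 114 FPKM in vitrified 2-cells, against 103, 75.4 and 91.2 FPKM in fresh 2-cells. In 4-cells it was at 197, 149 and 48.0 FPKM in vitrified embryos, against 166, 126 and 135 FPKM in fresh embryos. Blastocysts held far more, with 1403, 2624 and 2426 FPKM in vitrified embryos, against 2596, 3125 and 2588 FPKM in fresh embryos. The lowest 4-cell value was that of vitrified replicate 3, and the treatments overlapped at each stage.

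**Figure D3:**
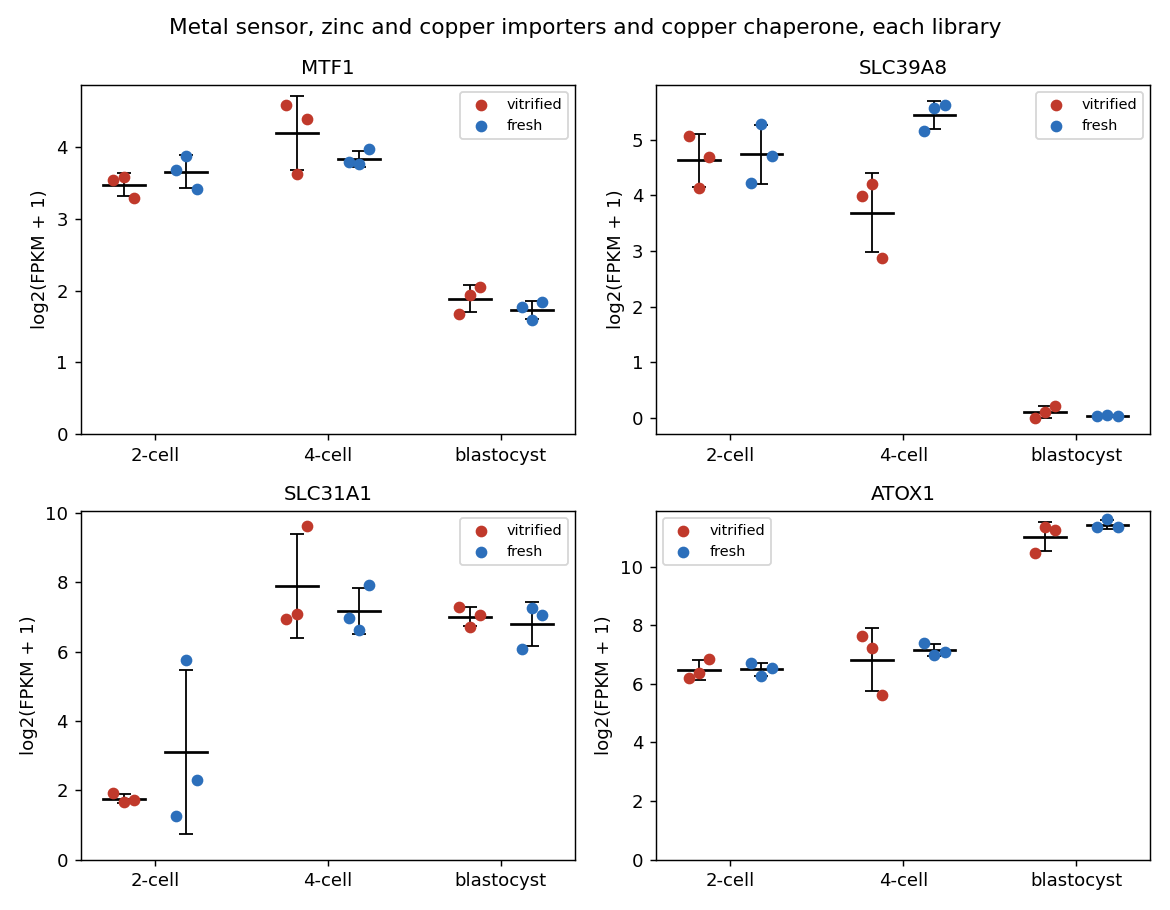
Level of MTF1, SLC39A8, SLC31A1 and ATOX1 in each of 18 libraries, as log2(FPKM + 1), by stage, with vitrified libraries in red (left) and fresh ones in blue (right) and bars for the mean and SD of 3. SLC39A8 separates the treatments in 4-cells (6.37 to 17.4 against 34.6 to 48.0 FPKM), and the other 3 genes differ mainly between stages.

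Vitrified and fresh embryos of the same stage were compared with limma on log2(FPKM + 1), and a gene was called where the unadjusted p was under 0.05 and the log2 difference over 1 in either direction. In 2-cells none of the 8 members was called, where 0.450% of all 8449 genes tested were, and none had an unadjusted p under 0.05 by limma. Without fresh replicate 1, SLC31A1 was called with a log2 difference of -2.27, and without fresh replicate 2 its difference was -0.01. In 4-cells 1 of 8 members was called, where 3.46% of all genes were. This was SLC39A8, at -1.76 (standard error 0.49) on the log2 scale, and its adjusted p was 0.947. In blastocysts 3 of the 6 members tested were called, where 2.26% of all genes were, and 0.766% were called lower. They were MT2A at -3.81 (standard error 1.16), MT1A at -2.79 (standard error 0.59) and ENSSSCG00000024911 at -2.55 (standard error 0.66), with adjusted p of 0.193, 0.124 and 0.152 over all genes in the limma fit. MT1A and ENSSSCG00000024911 each reached 1 FPKM in all 3 fresh blastocysts but in only 1 vitrified one. The minimum level was thus met through the fresh embryos, and both differences are descriptions only. No member reached an adjusted p of 0.05 at any stage. Since this contrast was known when the genes were put together, nothing is read from these counts. When the treatment difference was compared between stages, 1 of 8 members was called for 4-cells minus 2-cells, where 5.67% of all genes were. For blastocysts minus 4-cells 5 of 8 were called, where 8.49% of all genes were, and for blastocysts minus 2-cells 3 of 8, where 1.84% were.

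With 1 blastocyst left out at a time, the difference ranged from -5.12 to -2.68 for MT2A, from -3.43 to -2.41 for MT1A and from -3.40 to -2.03 for ENSSSCG00000024911. The value largest in size was in each case that without vitrified replicate 3, the vitrified blastocyst closest to the fresh ones. SLC39A8 in 4-cells was at -1.35 without vitrified replicate 3 of that stage. MT2A in 4-cells was at 1.14 (standard error 0.74) with all libraries and not called, and at 2.01 and called without vitrified replicate 3. SLC30A1 in 4-cells was at 0.90 (standard error 0.56) and not called, and at 0.47 without that replicate, while without vitrified replicate 2 it was called at 1.35. SLC31A1 in 4-cells was at 0.72 (standard error 0.72) with all libraries and at -0.15 without vitrified replicate 3. The 4-cell differences of the remaining members, none of them called, were 0.66 for MT1A, 0.34 for ENSSSCG00000024911, 0.26 for MTF1 and 0.28 for ATOX1 without that replicate. With all libraries they were 0.41, 0.19, 0.36 and -0.33.

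**Figure D4:**
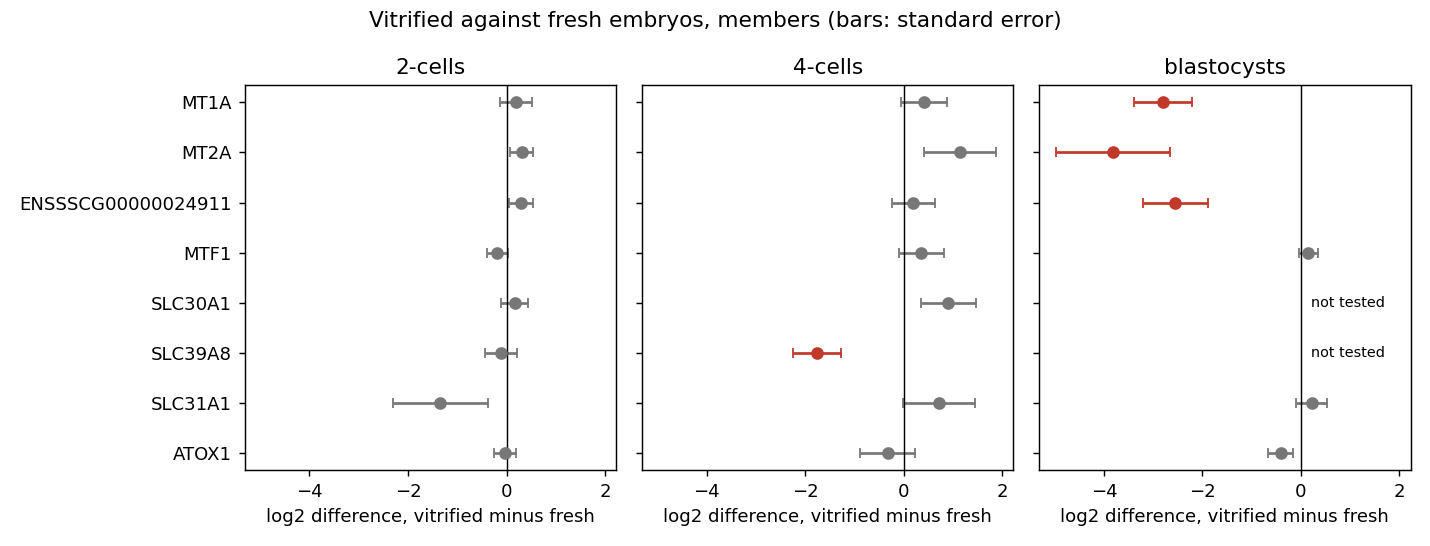
Difference between vitrified and fresh embryos for each member by stage, as log2(FPKM + 1) of vitrified minus fresh, with standard errors from limma (3 libraries per group). Red points were called (unadjusted p under 0.05 and over 1 in size), grey ones were not, and members under the minimum level are marked as not tested. In blastocysts the 3 metallothioneins lie between -3.81 and -2.55, and in 4-cells SLC39A8 lies at -1.76.

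Of the members tested, MT1A and ENSSSCG00000024911 in blastocysts and SLC39A8 in 4-cells had groups that did not overlap, with vitrified below fresh. Of all genes tested, 5.27% did so in blastocysts and 8.34% in 4-cells. SLC30A1 did so in blastocysts too, but it was under the minimum level there and is not among the genes behind that share. In these bulk samples, fewer cells of a type and less RNA per cell cannot be told apart. The summed blastocyst markers were at 1988 to 3404 FPKM in vitrified blastocysts, against 3590 to 3983 FPKM in fresh blastocysts. The keratins KRT8 and KRT18, markers of the trophectoderm, made up most of that sum. CDX2, a factor of the trophectoderm, was lower in every vitrified blastocyst, at 1.96 to 2.45 FPKM against 2.51 to 4.12 FPKM in fresh ones. The groups overlapped for KRT8 and for the factors GATA2 and TEAD4. GATA3, TFAP2C and GATA6 ran the opposite way and were higher in every vitrified blastocyst than in every fresh one. Of all genes tested in blastocysts, 17.3% were. The trophectoderm factor GATA3 was at 30.4 to 31.5 FPKM in vitrified, against 22.3 to 25.1 FPKM in fresh blastocysts. TFAP2C, another factor of the trophectoderm, was at 28.9 to 35.2 FPKM in vitrified, against 13.7 to 25.5 FPKM in fresh blastocysts. GATA6, a marker of the primitive endoderm, was at 18.6 to 22.7 FPKM in vitrified, against 12.02 to 16.04 FPKM in fresh blastocysts. NANOG was under 1 FPKM in the 3 vitrified blastocysts and at 0.873 to 3.84 FPKM in the fresh ones. Summed fibroblast markers were at 0.538 to 2.51 FPKM in vitrified, against 0.952 to 13.8 FPKM in fresh blastocysts, with 1 and 2 of 10 markers reaching 1 FPKM. None of 9 cumulus cell markers reached 1 FPKM in any blastocyst. The part of embryo cell make-up in the metallothionein levels was not tested.

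In 4-cells the summed oocyte markers were at 1118 to 1613 FPKM in vitrified embryos, against 1634 to 1937 FPKM in fresh embryos. The single markers were split. ZP3, ZAR1 and NOBOX were lower in every vitrified 4-cell library, as in 8.34% of all genes tested. The groups overlapped for GDF9, BMP15, ZP2, ZP4, OOEP and FIGLA, and ZP2 was highest in vitrified replicate 2, at 330 FPKM. SLC39A8 was lower in every vitrified 4-cell library and, like the oocyte markers, was present in cleavage stages and nearly absent from blastocysts. The genes most like it over the 18 libraries were BRINP3 (Pearson r = 0.99), BICC1 (r = 0.99) and NLRP8 (r = 0.99), among 11361 genes searched. The part of the maternal RNA level in the SLC39A8 difference was not tested. For MT2A the most similar genes were DDX24 (r = 0.94), SNRPB2 (r = 0.93) and SMG6 (r = 0.93). MT1A was most like S100A9 (r = 0.88), HBE1 (r = 0.88) and HNF4A (r = 0.87), and ENSSSCG00000024911 was most like TCFL5 (r = 0.82), PCP4L1 (r = 0.70) and SEL1L (r = 0.67). The libraries share stages and treatments, and both enter these correlations. In blastocysts HBE1, an embryonic globin, was at 0.851, 2.55 and 20.7 FPKM in vitrified embryos, against 493, 851 and 325 FPKM in fresh embryos. HNF4A, a transcription factor of the extra-embryonic endoderm and the liver, was at 0.304, 0.0001 and 1.36 FPKM in vitrified blastocysts, against 2.26, 3.64 and 2.68 FPKM in fresh blastocysts. Neither gene's groups overlapped, as for MT1A and for 5.27% of all genes tested in blastocysts, whereas those of S100A9 did. These genes were picked for their likeness to MT1A in the same libraries, so a shared gap follows in part from the choice. On ranks the correlation with MT1A was lower, at 0.60 for S100A9, 0.46 for HBE1 and 0.49 for HNF4A (Spearman). HNF4A met the minimum level in blastocysts through the fresh embryos. The part of the cells that express these genes in the MT1A level was not tested.

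The change between stages was fitted over all 18 libraries. Between 2-cells and 4-cells, 2 of 8 members were called in vitrified embryos, where 24.1% of all genes were, and 1 of 8 in fresh embryos, where 13.9% were. SLC31A1 rose in both, by 6.13 on the log2 scale in vitrified embryos (adjusted p = 0.000165, limma) and by 4.06 in fresh embryos (adjusted p = 0.0072, limma). SLC30A1 was called in vitrified embryos at 1.31 (standard error 0.38) and had 0.57 (standard error 0.38) in fresh embryos. Without vitrified replicate 3 of the 4-cells, SLC30A1 was at 0.88 in vitrified embryos and not called, and SLC31A1 was called at 5.26.

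Between 4-cells and blastocysts, 6 of 8 members were called in vitrified embryos, where 59.2% of all genes were, and 6 of 8 in fresh embryos, where 63.0% were. The members are few and most genes changed here, so these shares say little about the set. The median of all genes was -0.38 in vitrified and -0.56 in fresh embryos. ATOX1 rose, by 4.19 on the log2 scale in vitrified embryos and by 4.28 in fresh embryos. MT2A fell by 9.06 in vitrified and by 4.10 in fresh embryos, MTF1 fell by 2.31 and by 2.11, and SLC30A1 fell by 2.79 and by 1.39. SLC39A8 fell by 3.58 in vitrified embryos and fell by 5.40 in fresh embryos. All of these had an adjusted p of 0.00383 or less by limma. Without vitrified 4-cell replicate 3 the same 6 members were called in vitrified embryos, with MT2A at -9.93 and ATOX1 at 3.59. The remaining metallothioneins moved in unlike ways. MT1A was at -0.48 (standard error 0.51) in vitrified embryos and rose by 2.73 in fresh embryos (adjusted p = 0.000149, limma). ENSSSCG00000024911 fell by 1.94 in vitrified embryos (adjusted p = 0.00242, limma) and was at 0.80 (standard error 0.50) in fresh embryos.

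Other genes of metal handling were taken from 5 lists, of zinc importers, zinc exporters, copper carriers and chaperones, iron genes and other genes that MTF1 induces or represses in mouse. They held 54 genes besides the members. Between vitrified and fresh embryos, 0 of 29 tested were called in 2-cells, 1 of 35 in 4-cells and 0 of 36 in blastocysts, beside the shares of all genes given above. At an unadjusted p under 0.05 alone, limma gave 0 of them in 2-cells, 1 in 4-cells and 5 in blastocysts, where it gave 3.75%, 3.72% and 16.2% of all genes. The median log2 difference of the list genes was 0.01 in 2-cells, -0.17 in 4-cells and 0.16 in blastocysts, where all genes had -0.05, -0.16 and 0.11. The gene called was CCS, which delivers copper to the enzyme SOD1. It was at 1.98, 5.51 and 1.83 FPKM in vitrified 4-cells, against 0.0001, 1.16 and 0.0001 FPKM in fresh 4-cells. It averaged 3.10 ± 2.09 FPKM in vitrified 4-cells and 0.387 ± 0.670 FPKM in fresh 4-cells (SD, n = 3 each), with a log2 difference of 1.55 (standard error 0.49) and an adjusted p of 0.947 by limma. The minimum level was met through the vitrified embryos, so this difference is a description only. Without vitrified replicate 3 CCS was at 1.77, and 3 list genes were called in 4-cells. With the replicate number as a block, which pairs the 4-cell libraries, 4 of the list genes were called in 4-cells.

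The list genes with an unadjusted p under 0.05 in blastocysts, named after their values were seen, had log2 differences under 1 in size and adjusted p from 0.129 to 0.285 by limma. The zinc importer SLC39A2 was at 1.76, 2.26 and 2.56 FPKM in vitrified embryos, against 5.83, 5.18 and 4.27 FPKM in fresh embryos, a log2 difference of -0.93 (standard error 0.20). Every vitrified blastocyst was below every fresh one, as in 5.27% of all genes tested in blastocysts. SLC31A2, a relative of SLC31A1 found on inner membranes, was at 56.9, 39.7 and 34.3 FPKM in vitrified blastocysts, against 25.7, 25.9 and 28.0 FPKM in fresh blastocysts, a log2 difference of 0.67 (standard error 0.21). SCO2, a copper chaperone of cytochrome oxidase, had a difference of 0.59 (standard error 0.19), and GCLC, which makes the precursor of glutathione, had 0.48 (standard error 0.17). For both, every fresh blastocyst was under 1 FPKM, so the minimum level was met only through the vitrified embryos. Had those been lower too, neither gene would have been tested, so both differences are descriptions only. In SLC31A2, SCO2 and GCLC every vitrified blastocyst was above every fresh one, as in 17.3% of all genes tested in blastocysts. IREB2, an iron-sensing regulator, had 0.57 (standard error 0.23), and its groups overlapped.

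The most abundant genes of each list were named by their level, and their values in blastocysts follow. SOD1, the copper and zinc superoxide dismutase, was at 111 ± 19.3 FPKM in vitrified and 135 ± 35.9 FPKM in fresh blastocysts (SD, n = 3 each). COX17, the copper chaperone of cytochrome oxidase, was at 658 ± 85.4 in vitrified and 619 ± 66.0 FPKM in fresh blastocysts. FTL, the light chain of the iron store ferritin, was at 6587 ± 792 in vitrified and 7815 ± 905 FPKM in fresh blastocysts. PCBP1, which delivers iron to ferritin, was at 178 ± 37.1 in vitrified and 162 ± 36.7 FPKM in fresh blastocysts. SELENOH, a selenoprotein induced through MTF1 in mouse, was at 67.1 ± 16.4 in vitrified and 76.8 ± 0.337 FPKM in fresh blastocysts. Among zinc exporters SLC30A9 was at 4.06 ± 1.48 in vitrified and 3.38 ± 0.477 FPKM in fresh blastocysts, and SLC30A6 at 3.08 ± 1.19 in vitrified and 2.16 ± 0.206 FPKM in fresh blastocysts. In blastocysts the log2 differences of these 7 genes lay between -0.26 and 0.32, and none was called. In 4-cells COX17 was at -1.23 (standard error 0.88) and was not called.

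The zinc importers SLC39A10 and SLC39A6 also fell under 1 FPKM on average in blastocysts of each treatment, and their groups overlapped in 4-cells. SLC39A10 was at 44.4 ± 17.9 FPKM in vitrified and 61.3 ± 9.31 FPKM in fresh 4-cells, with a log2 difference of -0.52 (standard error 0.45). SLC39A6 was at 12.8 ± 5.85 FPKM in vitrified and 16.0 ± 3.62 FPKM in fresh 4-cells, with a log2 difference of -0.36 (standard error 0.47). Without vitrified replicate 3 the differences were -0.32 for SLC39A10 and -0.13 for SLC39A6. Whether SLC39A8 differed more than these importers was not tested. The brain metallothionein MT3, named after its values were seen, was at 3.95, 5.85 and 0.292 FPKM in vitrified 4-cells, against 23.9, 9.35 and 4.46 FPKM in fresh 4-cells, and was not called. Its log2 difference was -1.67, and -0.94 without vitrified replicate 3. In blastocysts MT3 was listed at 0 in 5 of 6 libraries and MT4 in all 6.

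**Figure D5:**
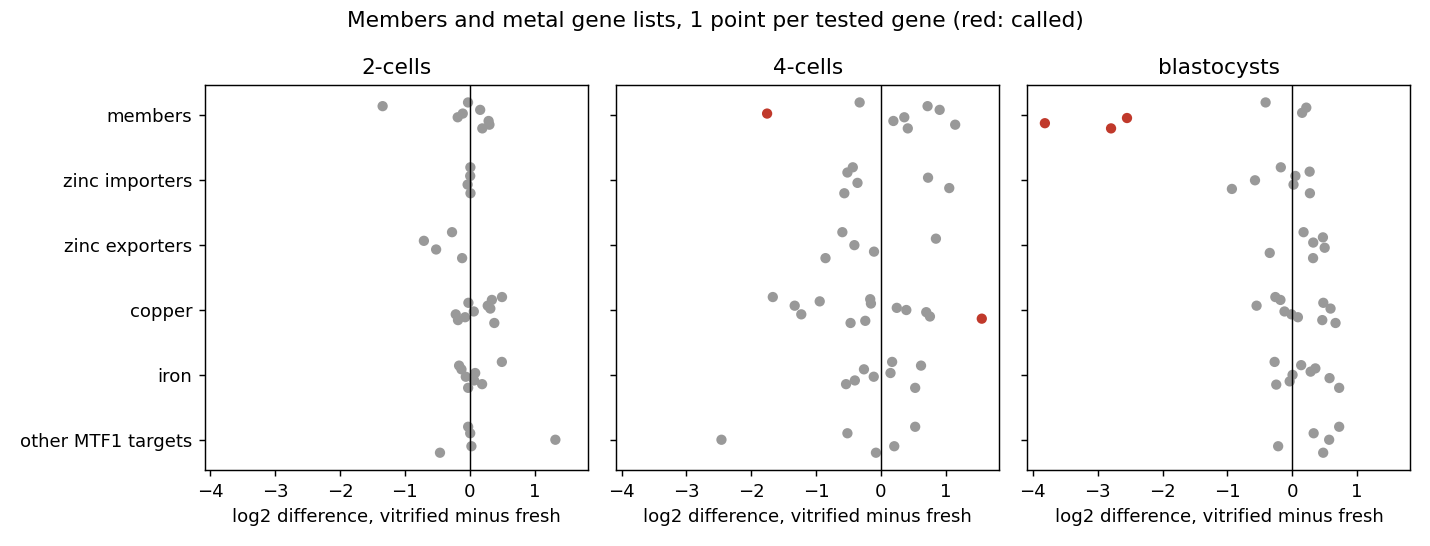
Difference between vitrified and fresh embryos by stage for the members and for the genes of 5 metal lists, as log2(FPKM + 1) of vitrified minus fresh, 1 point per tested gene. Red points were called. The list genes called number 0, 1 and 0 from 2-cells to blastocysts. In blastocysts the 3 metallothioneins lie below every list gene. The members were chosen with these values known and the list genes were not, so this is a description only.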

How the data were processed

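Libraries were prepared from pooled or single cloned embryos with a low-input cDNA kit per the study's methods, whereas the label protocol describes a small RNA kit, and the libraries were used here as mRNA. The authors trimmed reads with cutadapt, checked them with FastQC, aligned them with Bowtie2 and HISAT2 and computed FPKM with StringTie (versions, genome build and annotation are not given in the sources used here). The deposited FPKM values keep no read counts, so the depth is unknown and no counting interval could be given. Columns of the deposited tables that hold the authors' own fold changes, p-values and marks were not used.

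Vitrified and fresh embryos were compared within a stage with limma 3.58.1 (R 4.3.3; variance trend, log2 of FPKM plus a pseudocount of 1, a minimum of 1 FPKM in 3 or more of 6 libraries), and stages and differences between stages in a single fit of 18 libraries (the same minimum in 3 or more of 18). Differences on this scale understate the change of low genes. p-values were adjusted by Benjamini-Hochberg over all genes tested. The method was tested on simulated data with differences placed only in genes of higher level, so that test does not cover low genes. The members, lists and tests were chosen with earlier results of these data known. Genes named beside the members by rule were those of the lists called in any treatment contrast, the 2 most abundant of each list, and the 3 most similar to each of 4 members. Named outside this rule were MT3, MT4, single marker genes and the list genes with an unadjusted p under 0.05 by limma in blastocysts. Gene names were checked against RefSeq's Sscrofa11.1 table.

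Libraries of a stage carry the same replicate numbers in both treatments. After removal of group means, same-numbered libraries correlated at 0.22, 0.37 and 0.42 in 4-cells, so they may be paired there. In 2-cells they correlated at 0.03, -0.11 and 0.11, and in blastocysts at 0.25, 0.05 and 0.0003. The main fits were unpaired at every stage, also in 4-cells. Pairing by replicate number entered only as the alternative with the replicate block. The study states biological replicates, but nothing says that they came from separate cultures, so p-values measure the spread between these libraries. Alternatives were a pseudocount of 0.1, no filter, quantile and median-ratio scaling, the replicate block, other samples in the fit, and leaving out each library. Values of stage changes and of list genes without vitrified 4-cell replicate 3 were added after seeing the data.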

Additional observations from a re-analysis of the deposited data

Results flagged for a closer look

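The difference between vitrified and fresh embryos was itself compared between stages in the fit of 18 libraries. Of 8 members, 1 was called for 4-cells minus 2-cells (5.67% of all genes), 5 for blastocysts minus 4-cells (8.49%) and 3 for blastocysts minus 2-cells (1.84%), each at an unadjusted p under 0.05. The same treatment values were known when the genes were put together, so these are descriptions.

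The metallothioneins were called in both comparisons with blastocysts. For blastocysts minus 4-cells the difference was -4.96 for MT2A, -3.21 for MT1A and -2.74 for ENSSSCG00000024911 on the log2 scale (adjusted p of 0.216, 0.149 and 0.191 by limma). For blastocysts minus 2-cells it was -4.12 for MT2A, -2.99 for MT1A and -2.84 for ENSSSCG00000024911 (adjusted p of 1.00, 0.723 and 0.723 by limma). All 6 values were called whichever library was left out.

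SLC39A8 was called for 4-cells minus 2-cells at -1.65 and for blastocysts minus 4-cells at 1.82. In every blastocyst SLC39A8 was at 0.168 FPKM or less, so the second value mirrors the gap in 4-cells. The adjusted p were 0.451 and 0.216 by limma. SLC30A1 was called for blastocysts minus 4-cells at -1.40, and this was lost without vitrified 4-cell replicate 3 (-0.97) or fresh blastocyst replicate 2 (-1.21).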

How the results depend on the processing

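The calls of MT1A, MT2A and ENSSSCG00000024911 in blastocysts and of SLC39A8 in 4-cells were kept in each of 6 fits that left out a library and under each of 6 other settings. Their log2 differences ranged from -3.91 to -2.41 for MT1A, from -5.12 to -2.68 for MT2A, from -4.17 to -2.03 for ENSSSCG00000024911 and from -2.01 to -1.35 for SLC39A8. Their adjusted p over these settings ranged from 0.042 to 0.394, from 0.103 to 0.461, from 0.019 to 0.423 and from 0.037 to 0.999 for these genes in turn (limma). In the main fit MT1A and ENSSSCG00000024911 met the minimum level in blastocysts through the fresh embryos, so their kept calls are descriptions only. Leaving out a library gave 0 to 1 members called in 2-cells, 1 to 2 in 4-cells and 3 in blastocysts. It gave 1 to 4 for 4-cells against 2-cells and 6 to 7 for blastocysts against 4-cells in vitrified embryos, and 4 to 6 members for the difference between stages. The metal lists had 0 to 1, 1 to 3 and 0 to 1 genes called at the 3 stages. In the fit of only the 6 libraries compared, 2 members were called for 4-cells against 2-cells in fresh embryos. In the metal lists, 4 genes were called in 4-cells with the replicate block and 3 in a single fit of all 18 libraries, and in blastocysts 2 were called with a pseudocount of 0.1, 1 after quantile normalization and 1 after median-ratio scaling. The cause was not tested. The replicate block changed no call of a member. The median of all genes was at -0.16 in 4-cells and 0.11 in blastocysts without scaling. Of all genes, 87 were called higher and 216 lower in 4-cells, against 138 and 140 after quantile normalization and 145 and 137 after median-ratio scaling. In blastocysts 117 were higher and 60 lower, against 53 and 92, and 54 and 92. In 2-cells 15 were higher and 23 lower, against 21 and 13, and 17 and 17.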
